A study of Homo sapiens with 6 samples.

Results

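The genes described here build and police the mitotic chromosome: the kinetochore, the spindle checkpoint, the Aurora and Polo-like kinases, and the condensin and cohesin rings. They were chosen by symbol, with earlier results of these data known, so the choice was not independent of the data. The rule took all symbols starting with CENP, NCAP, AURK, BUB or STAG, or with SMC or PLK and a digit, and 17 genes named singly, such as TOP2A, MKI67 and CDC20. This gave 56 genes out of 14779 named and measured. The NCAP genes, which encode the non-ATPase subunits of condensin, were not analysed here, nor were NUF2, SPC24, SPC25, TPX2 and ANLN, since no probe set was named for them alone. CENPE and CENPF were likewise not analysed here, so NDC80 alone stood for the outer kinetochore and SMC2 and SMC4 alone for condensin. Of the 56, 49 were kinetochore, kinase, ring or chromosome genes proper. The other 7 were a pseudogene (CENPBD2P), the lncRNA SMC5-DT that starts beside SMC5, and 5 copies or read-through transcripts related to STAG3.

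LA1-55n is a human neuroblastoma line. Both groups carried a doxycycline-inducible (tet-on) hairpin and received 0.5 µg/ml of the drug over 7 days: against GFP in the control cells (shGFP, arrays a, b and c) and against glycine decarboxylase in the knockdown cells (shGLDC99, arrays a, b and c). RNA was read on 6 Affymetrix Human Gene 2.0 ST arrays, 3 per group. Only 1 hairpin to GLDC was used and no array came from cells without the drug, so loss of GLDC and any other action of this hairpin cannot be told apart. The labels do not say whether the cells were clones or pools, or whether the samples were separate cultures, so p-values cover only the spread among the 6 samples, which may be technical. Values are log2 intensities per probe set, differences are shGLDC99 minus shGFP, and a gene is said to have fallen or risen where the limma adjusted p over all 14779 genes was under 0.05.

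Each chromosome carries its kinetochore on a centromere marked by CENP-A, a histone H3 variant, on which a constitutive inner network recruits the outer plate that holds microtubules. Unattached kinetochores run the spindle checkpoint, in which MAD2 and BUBR1 hold back CDC20 and with it the anaphase-promoting complex. Condensin loops and compacts the chromosome arms, cohesin holds sister chromatids together until separase cuts its RAD21 subunit, and the SMC5/6 ring serves repair and replication stress. Many of these genes are transcribed in waves late in the cell cycle, driven through CHR and CCAAT elements in their promoters by the MuvB complex with B-MYB and FOXM1, and by NF-Y.

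GLDC itself was lower in every knockdown array: 7.85, 7.90 and 7.81 in shGFP a, b and c against 5.98, 5.65 and 5.93 in shGLDC99 a, b and c. That left 24.9% of the control level (log2 difference -2.00 ± 0.10 SE, limma adjusted p = 0.00101). Of 13 measured markers of the adrenergic neuroblastoma lineage 11 lay above the median gene level of 5.09; DBH and STMN2 lay below it. ISL1 (-1.09), GATA2, TBX2 and GATA3 of these markers fell and CHGB and INSM1 rose. The constitutive genes held 0 falls and 0 rises among 6 measured by limma. Of these, 2 had an unadjusted limma p under 0.05, HPRT1 (-0.27) and TBP (0.21), as did 3599 of all 14779 genes. Of the 6 differences 5 were below 0, with a median of -0.09. Of the other cell types a culture could hold, 2 of 21 markers lay above that median, THY1 and CD68. Array means of the 3 measured fibroblast markers ran from 3.57 to 3.64 in shGFP and from 3.79 to 3.89 in shGLDC99 cells, where LUM rose by 0.52; their part in the results below was not tested.

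Most of the mitotic chromosome genes were lower in shGLDC99 cells. Of 56, 21 fell, 1 rose and 34 did not pass the threshold, where 4.8% of all genes fell and 3.72% rose. The difference was below 0 for 52 of them, and the median over the 56 was -0.26, against -0.01 over all genes. In 38 all 3 knockdown arrays lay below all 3 control arrays and in 1 above, against 16.3% and 14.5% of all genes. The shifts were small, from -0.58 for SMC6 to 0.89 for PLK2, the single gene that rose. At the threshold stood PLK4, CENPM and MAD2L1 (adjusted p = 0.0411, 0.0420 and 0.0460 by limma) on the inside and PRC1, ECT2 and CENPN (0.0550, 0.0646 and 0.0653) on the outside. Fewer cells expressing these genes and less of each transcript per cell cannot be told apart in bulk RNA.

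The count of falls depended on every array. It was 7, 9 and 5 without shGFP a, b or c, and 8, 9 and 8 without shGLDC99 a, b or c. Falls over all genes dropped too, from 709 to between 238 and 327. Those of the 56 genes that passed in all 6 of these reduced fits were SMC6, SMC2, SMC4, STAG3 and TOP2A. The size of the shift moved less: the median of the 56 genes lay between -0.277 and -0.235 in those fits, and 50 to 53 genes were below 0. In single arrays the median deviation from the control mean was -0.29, -0.27 and -0.21 in shGLDC99 a, b and c over the 56 genes, and 49, 49 and 50 of them were below that mean.

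**Figure D1:**
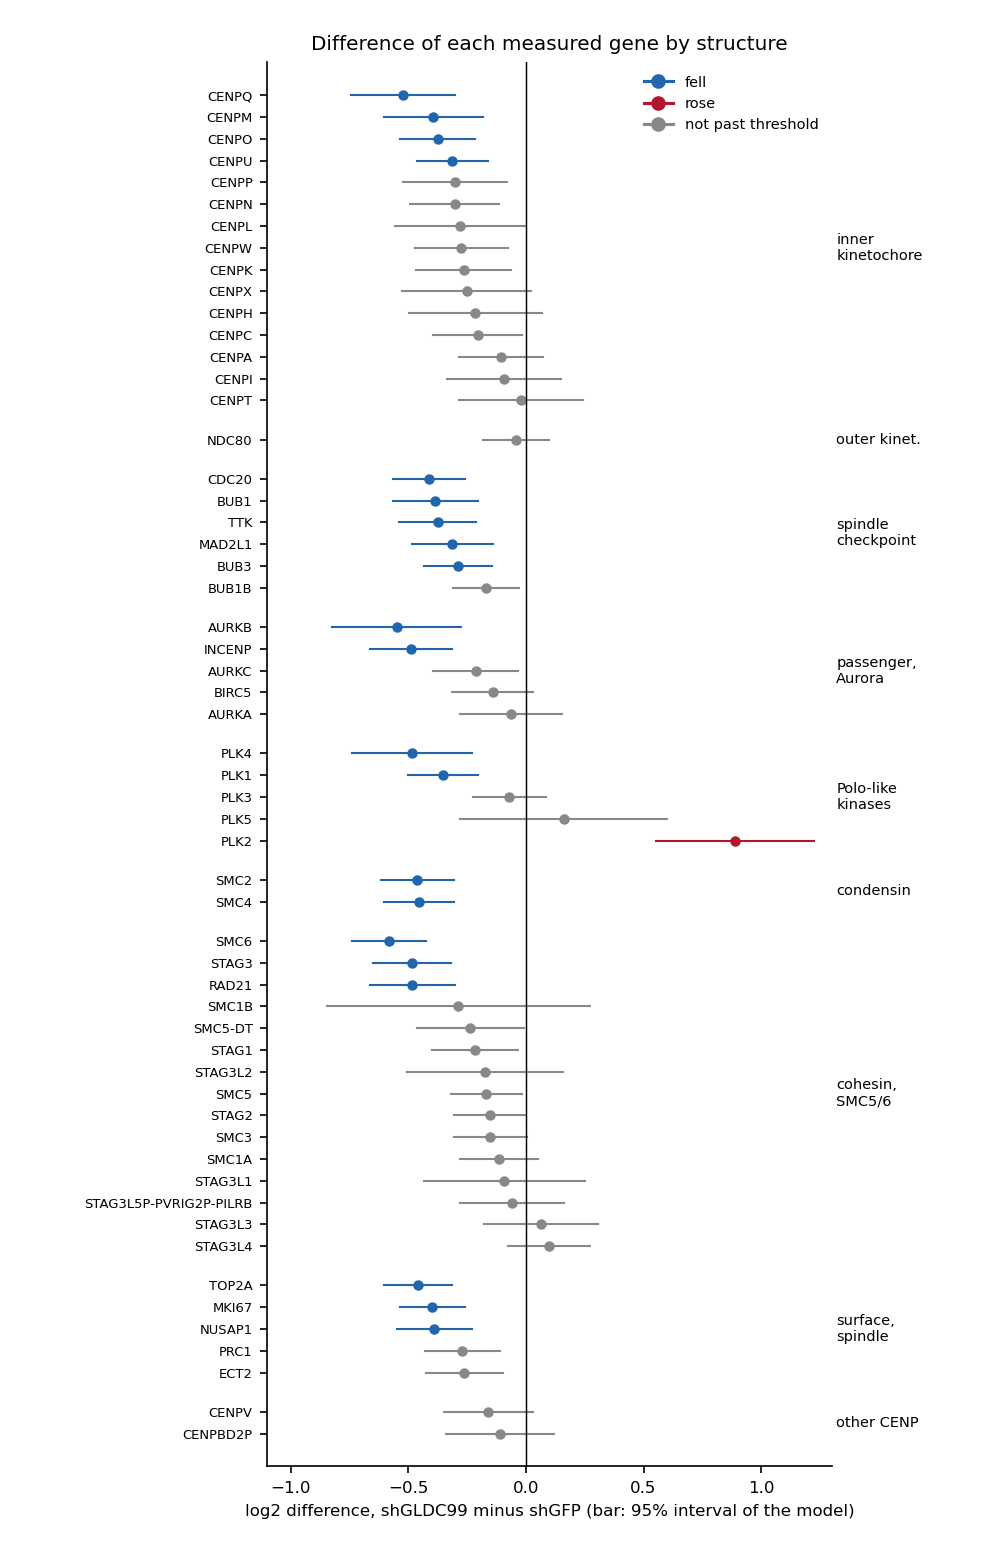
Log2 difference (shGLDC99 minus shGFP, horizontal axis) of each of the 56 genes, grouped by structure, with its 95% interval from the limma model over 3 arrays per group. Blue genes fell, the red gene rose and grey genes did not pass the threshold; 52 of the 56 points lie left of 0, from -0.58 (SMC6) upward, and PLK2 stands alone at 0.89.

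The promoters of 4 genes are shown to set the CHR element beside the falls with the smallest adjusted p. TOP2A and SMC4 are the falls with the smallest adjusted p whose promoter holds the CHR element, and SMC6 and STAG3 are the corresponding ring genes of the cohesin and SMC5/6 group. Each window runs from 250 bases before the RefSeq start site to 50 bases from it on (GRCh38.p14, read along the gene): TOP2A at chr17:40417847-40418146 (minus strand), SMC4 at chr3:160399400-160399699 (plus strand), SMC6 at chr2:17753761-17754060 (minus strand) and STAG3 at chr7:100177474-100177773 (plus strand). Capitals mark, on either strand, the CHR element (TTTGAA) and its variant (TTCGAA), the CCAAT box, and 2 E2F-type motifs (TTTGGCGC and also TTTCGCGC).
TOP2A: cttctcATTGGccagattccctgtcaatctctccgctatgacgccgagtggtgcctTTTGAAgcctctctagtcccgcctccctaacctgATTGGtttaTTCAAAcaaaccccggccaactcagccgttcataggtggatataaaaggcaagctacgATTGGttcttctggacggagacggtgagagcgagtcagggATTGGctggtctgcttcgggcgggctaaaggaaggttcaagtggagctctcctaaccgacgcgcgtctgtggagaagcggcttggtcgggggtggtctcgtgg
SMC4: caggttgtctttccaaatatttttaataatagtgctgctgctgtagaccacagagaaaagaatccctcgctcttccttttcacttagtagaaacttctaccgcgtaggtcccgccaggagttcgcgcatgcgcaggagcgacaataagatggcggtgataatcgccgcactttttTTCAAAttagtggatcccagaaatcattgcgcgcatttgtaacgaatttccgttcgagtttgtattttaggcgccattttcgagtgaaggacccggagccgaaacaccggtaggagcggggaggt
SMC6: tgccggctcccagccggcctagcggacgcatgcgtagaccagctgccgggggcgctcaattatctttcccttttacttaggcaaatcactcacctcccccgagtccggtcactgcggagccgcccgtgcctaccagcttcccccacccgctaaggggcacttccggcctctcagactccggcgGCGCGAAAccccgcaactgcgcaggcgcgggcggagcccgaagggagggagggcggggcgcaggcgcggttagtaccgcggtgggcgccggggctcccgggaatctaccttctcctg
STAG3: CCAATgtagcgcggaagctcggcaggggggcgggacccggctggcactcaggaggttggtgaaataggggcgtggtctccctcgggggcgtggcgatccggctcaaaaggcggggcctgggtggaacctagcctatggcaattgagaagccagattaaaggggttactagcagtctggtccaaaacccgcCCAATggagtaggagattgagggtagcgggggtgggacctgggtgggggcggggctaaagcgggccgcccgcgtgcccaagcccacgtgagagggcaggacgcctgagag
TOP2A held the CHR element at -194 and, on the opposite strand, at -151, and 4 CCAAT boxes on the opposite strand at -244, -160, -93 and -53. SMC4 held the CHR element on the opposite strand at -75 and no CCAAT box. SMC6 held neither, but an E2F-type TTTCGCGC on the opposite strand at -67. STAG3 held CCAAT at -250 and -60 and no CHR element. SMC4 and STAG3 each have a second listed start site, whose windows held none of these motifs.

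RefSeq promoter windows were matched for 42 of the 56 genes. The CHR element TTTGAA, on either strand, was in a window of 19 of these 42 (45.2%), against 18.2% of all 27305 genes in the table. Those 27305, also the base of the other motif shares below, include genes not tested here. Of the 19 genes with it 11 fell, and of the 23 without it 6 fell; their median differences were -0.35 and -0.24. Over all tested genes with a window, 6.77% of the 1639 with the element and 5.24% of the 9076 without it fell. The 11 were CENPO, CDC20, MAD2L1, INCENP, PLK1, PLK4, SMC2, SMC4, TOP2A, MKI67 and NUSAP1. The variant TTCGAA was found in 3 of the 42 windows (BUB1, CENPW and NDC80; 1.82% of all genes), CCAAT in 26 (61.9%, against 39.7%), and each E2F-type motif in 2 (0.795% and 0.630%). Of the 26 genes with CCAAT 13 fell, and of the 16 without it 4 fell, with median differences of -0.31 and -0.16. Falls over all tested genes were not split by CCAAT. CHR and CCAAT stood together in 13 (31.0%, against 8.37%), of which 8 fell, and 9 of the other 29 fell. A match is a run of letters, not a tested binding site. CENPN, CENPC, CENPA, NDC80, BUB1B, SMC3, PRC1 and ECT2 held the CHR element and did not pass the threshold.

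Of the 15 inner kinetochore genes measured, 4 fell, 0 rose and 11 did not pass, where 4.8% of all genes fell. In 11 of the 15 all knockdown arrays lay below all control arrays, against 16.3% of all genes. All 15 differences were below 0, with a median of -0.28. The difference of CENPT turned to 0.066 without shGFP c and to 0.061 without shGLDC99 c. CENPQ, of the CENP-O/P/Q/U/R subcomplex that anchors PLK1, had the largest difference: 6.72, 6.53 and 6.49 in shGFP a, b and c against 5.94, 6.15 and 6.08 in shGLDC99 a, b and c (-0.52 ± 0.0924 SE, adjusted p = 0.0215 by limma). Its groups did not overlap. CENPO, of the same subcomplex, read 7.10, 6.98 and 7.01 in control cells and 6.59, 6.69 and 6.67 in knockdown cells (-0.38, adjusted p = 0.0224). CENPU read 7.20, 7.30 and 7.23 against 6.97, 6.89 and 6.94 (-0.31, adjusted p = 0.0313). CENPP, another subunit beside them, differed by -0.30 with a larger SE of 0.0926 and did not pass (adjusted p = 0.0976).

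CENPM, a small GTPase-like subunit next to CENP-I, read 7.02, 6.73 and 6.84 in shGFP a, b and c and 6.48, 6.43 and 6.49 in shGLDC99 a, b and c (-0.39, adjusted p = 0.0420 by limma). CENPN (-0.30), CENPK (-0.26), CENPW (-0.28), CENPL (-0.28), CENPC (-0.21) and CENPX (-0.25) had separate groups and did not pass, with adjusted p from 0.0653 to 0.243. CENPA, the histone that founds the centromere, read 7.10, 7.24 and 7.08 against 7.11, 6.98 and 7.00. Its groups overlapped, with a difference of -0.11 and a 95% interval from -0.28 to 0.07. CENPT, a link to the outer plate, had the difference nearest 0, -0.02 (5.58, 5.47 and 5.78 against 5.70, 5.65 and 5.43). CENPI (-0.09) and CENPH (-0.21) overlapped too. Leaving out shGLDC99 b left 1 fall in this group, and leaving out any other array left 0. There were 8 falls with limma's prior variance following intensity, and also without the dimmest 40% of genes. Falls over all genes grew too under these settings, from 709 to 1350 of 14779 and to 1252 of 8867.

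NDC80, the microtubule-binding arm of the outer kinetochore, did not pass: 6.93, 6.96 and 6.99 in shGFP a, b and c against 6.92, 6.90 and 6.94 in shGLDC99 a, b and c. The difference was -0.04 with a 95% interval from -0.18 to 0.10 (adjusted p = 0.714 by limma), so a fall the size of that of TOP2A lies outside it.

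A list of kinetochore partners outside the gene set covered KNL1, RZZ and Ska genes, their checkpoint partners, and the inner-network gene ITGB3BP; subunits of the Mis12 complex were not analysed here. Of 11 measured, 4 fell and 0 rose, with a median of -0.28, where 4.8% of all genes fell. SKA3, of the complex that tracks depolymerising microtubules, read 7.90, 7.90 and 7.98 against 7.28, 7.25 and 7.42 in shGFP and shGLDC99 a, b and c, a difference of -0.61 (adjusted p = 0.00731 by limma). ITGB3BP, which encodes CENP-R of the inner kinetochore, fell by 0.50, as did KNL1 (-0.37), the scaffold of the BUB proteins, and KNTC1 (-0.30), the ROD subunit of RZZ; KNTC1 was chosen after its value was seen. Among 8 genes that load CENP-A, guard the centromere or partner the passenger complex, the median was -0.33. Against 4.8% of all genes, 4 of these 8 fell and 0 rose. They were MIS18A (-0.58), the shugoshins SGO1 (-0.35) and SGO2 (-0.56), and CDCA2 (-0.31), chosen after its value was seen. HJURP, the chaperone of CENP-A, differed by -0.26 (adjusted p = 0.0792). With 1 array left out, 2 genes of the first list fell (3 without shGLDC99 c), and 1 of the second (2 without shGFP c or shGLDC99 a).

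Most of the spindle checkpoint fell. Of 6 genes measured 5 fell, 0 rose and 1 did not pass, with a median of -0.34, where 4.8% of all genes fell. In all 6 the knockdown arrays lay below all control arrays, against 16.3% of all genes. CDC20, the target that the checkpoint restrains and the activator of the anaphase-promoting complex, read 8.15, 8.09 and 8.20 in shGFP a, b and c and 7.78, 7.73 and 7.70 in shGLDC99 a, b and c. It fell by 0.41 ± 0.0637 (SE), to 75.2% of control (adjusted p = 0.0140 by limma). TTK, the MPS1 kinase that starts the signal, read 8.41, 8.37 and 8.36 against 7.91, 8.06 and 8.05 and fell by 0.38. BUB1, the kinase that brings shugoshin to the centromere, read 9.11, 8.98 and 9.08 against 8.64, 8.61 and 8.78 and fell by 0.38.

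BUB3, the adaptor of both BUB kinases, read 9.40, 9.44 and 9.45 in shGFP a, b and c and 9.12, 9.12 and 9.19 in shGLDC99 a, b and c, a fall of 0.29 (adjusted p = 0.0353 by limma). MAD2L1, which encodes MAD2, fell by 0.31 (adjusted p = 0.0460). BUB1B, which encodes BUBR1, was down in every knockdown array by a smaller amount: 7.44, 7.47 and 7.42 against 7.30, 7.25 and 7.27, a difference of -0.17 (adjusted p = 0.133). Within arrays the gap between BUB1 and BUB1B changed by -0.22 in knockdown cells, with no overlap between groups. An exact two-sided permutation gave p = 0.1, the smallest that 3 against 3 allows, and 0.2 adjusted over 8 gene pairs. All 8 pairs were chosen after values were seen, so these p-values are no independent test of a gap. Without shGFP a or c or shGLDC99 b 0 checkpoint genes fell, and without shGFP b or shGLDC99 a or c 1 fell. All 6 fell with limma's prior variance following intensity, and again without the dimmest 40% of genes. Of all genes, 1350 of 14779 and 1252 of 8867 fell under these settings.

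**Figure D2:**
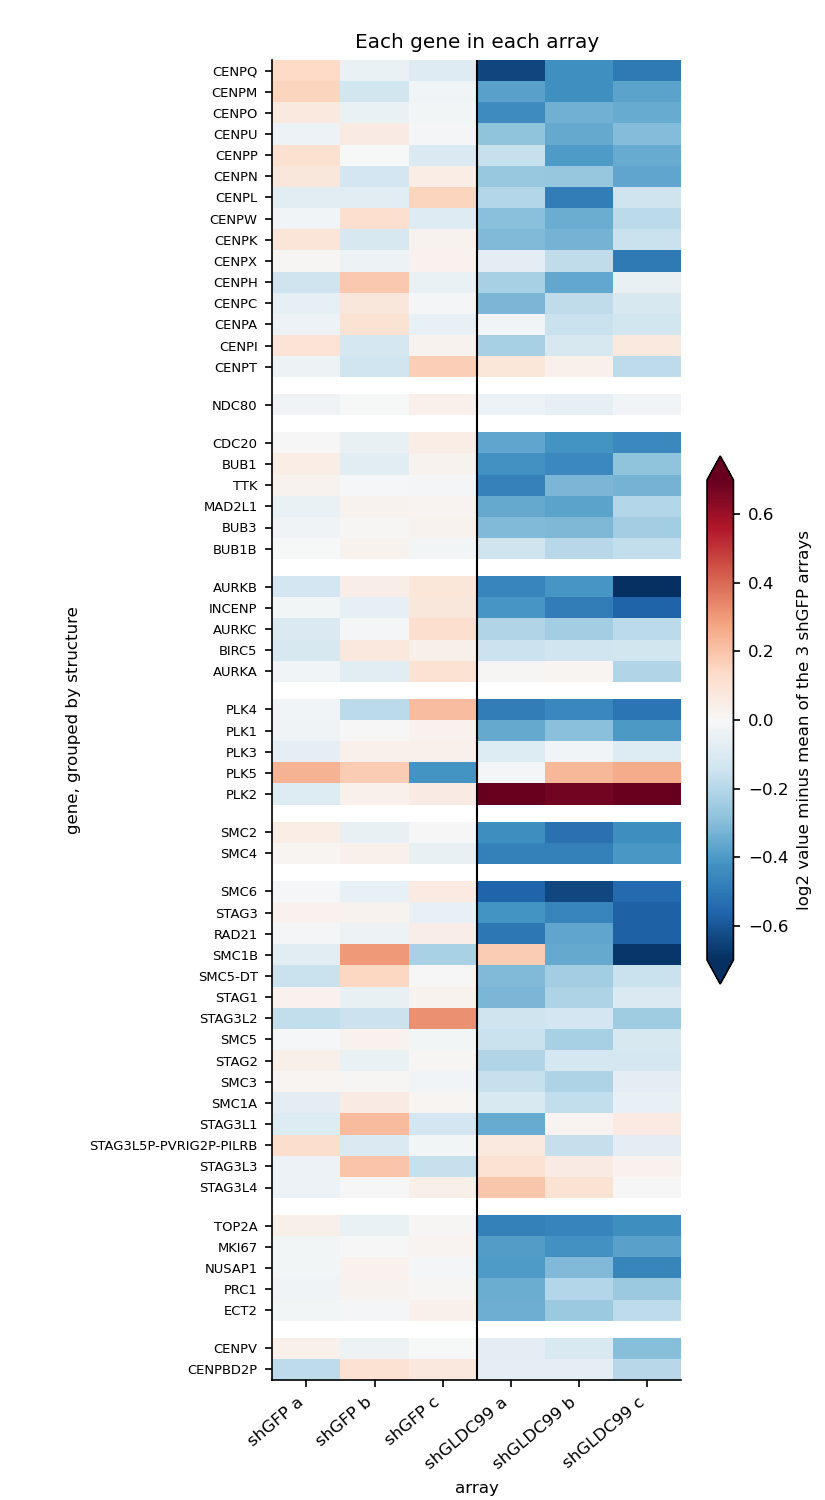
Log2 value of each gene in each of the 6 arrays minus the mean of the 3 shGFP arrays (colour, limited to 0.7 either way), with genes grouped as in the plot of differences and ordered by difference. The shGLDC99 columns are blue in most rows, with 49, 49 and 50 of 56 genes below the control mean in a, b and c; NDC80 stays pale, and PLK2 is red.

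The passenger complex corrects faulty attachments. INCENP, its scaffold, and AURKB, its kinase, fell, while BIRC5 (survivin), its centromere-binding subunit, did not pass. CDCA8, a passenger partner outside the gene set, differed by -0.31 with separate groups and did not pass (adjusted p = 0.113 by limma). INCENP read 7.33, 7.28 and 7.43 in shGFP a, b and c against 6.94, 6.86 and 6.78 in shGLDC99 a, b and c (-0.49 ± 0.0736 SE, adjusted p = 0.0131 by limma). AURKB read 8.51, 8.69 and 8.72 against 8.17, 8.23 and 7.87 (-0.55 ± 0.115 SE, adjusted p = 0.0351), with array shGLDC99 c the lowest. BIRC5 read 6.76, 6.95 and 6.92 against 6.72, 6.73 and 6.74; the groups were separate, but only just (-0.14, adjusted p = 0.295).

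AURKA, the spindle-pole Aurora kinase, overlapped between groups: 6.44, 6.39 and 6.57 in shGFP a, b and c against 6.48, 6.48 and 6.25 in shGLDC99 a, b and c. Its difference of -0.06 had a 95% interval from -0.28 to 0.15, and turned to 0.01 without shGLDC99 c. The gap between AURKB and AURKA within arrays changed by -0.49, from between 2.07 and 2.30 to between 1.61 and 1.74. The exact two-sided permutation p was 0.1, the smallest possible here, and 0.2 adjusted over the 8 pairs. This pair too was chosen after values were seen. AURKC, the Aurora kinase of meiosis, read 4.32, 4.41 and 4.54 against 4.21, 4.18 and 4.23 (-0.21, adjusted p = 0.142), below the median gene level and not shown to exceed background. Of the 5 passenger and Aurora genes of the set 2 fell and 0 rose, where 4.8% of all genes fell. Without shGFP c or shGLDC99 b 0 fell, and without any other 1 array 1 fell, INCENP.

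The Polo-like kinases went in opposite directions: of 5 measured 2 fell and 1 rose, where 4.8% of all genes fell and 3.72% rose. PLK1, the mitotic kinase, and PLK4, which starts centriole duplication, fell; PLK2, a kinase of stress and synaptic signalling, rose; PLK3 and PLK5 did not pass. PLK1 read 10.11, 10.15 and 10.17 in shGFP a, b and c and 9.78, 9.85 and 9.74 in shGLDC99 a, b and c (-0.35 ± 0.0629 SE, adjusted p = 0.0222 by limma). PLK4 read 7.10, 6.94 and 7.34 against 6.64, 6.67 and 6.62 (-0.49 ± 0.107 SE, adjusted p = 0.0411); its control arrays were the more scattered. PLK2 read 5.04, 5.17 and 5.19 against 6.33, 5.81 and 5.92, a 1.85-fold rise (0.89 ± 0.141 SE, adjusted p = 0.0153). Array shGLDC99 a stood highest for PLK2, and all knockdown arrays lay above all control arrays.

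PLK3 read 5.21, 5.31 and 5.31 in control arrays a, b and c and 5.18, 5.25 and 5.18 in knockdown arrays (-0.07, 95% interval -0.23 to 0.08). PLK5, which lacks a full kinase domain, was the most scattered gene of the family: 4.57, 4.50 and 3.91 against 4.32, 4.56 and 4.59, a difference of 0.16 that turned to -0.05 without shGFP c. The gap between PLK1 and PLK2, a pair chosen after values were seen, changed by -1.24. Its exact two-sided permutation p was 0.1, the smallest possible here, and 0.2 adjusted over the 8 pairs. With shGFP b left out PLK4 alone fell, and with any other array left out 0 of the family fell. The rise of PLK2 was lost without shGFP a, b or c (adjusted p = 0.0558, 0.0541 and 0.0540), and kept without any 1 shGLDC99 array.

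Both measured condensin genes fell, by like amounts, where 4.8% of all genes fell. SMC2 and SMC4 are the paired ATPases that form every condensin ring. SMC2 read 7.97, 7.87 and 7.92 in shGFP a, b and c and 7.48, 7.40 and 7.49 in shGLDC99 a, b and c (-0.46 ± 0.0649 SE, adjusted p = 0.0107 by limma). SMC4 read 9.57, 9.59 and 9.50 against 9.08, 9.08 and 9.15 (-0.45 ± 0.0625 SE, adjusted p = 0.0102). These levels are 72.6% and 73.0% of control. The gap between SMC2 and SMC4 within arrays moved by -0.008, with SDs of 0.0786 in control and 0.0446 in knockdown arrays (exact two-sided permutation p = 0.9; 0.9 adjusted over the 8 pairs). Both passed without any 1 of the 6 arrays.

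The paired ATPases of cohesin did not pass. SMC3 read 10.64, 10.63 and 10.60 in shGFP a, b and c and 10.46, 10.41 and 10.55 in shGLDC99 a, b and c (-0.15, 95% interval -0.31 to 0.01, adjusted p = 0.220 by limma). SMC1A read 8.32, 8.46 and 8.42 against 8.29, 8.23 and 8.34, with overlapping groups (-0.11, 95% interval -0.28 to 0.05, adjusted p = 0.377). The gap between SMC1A and SMC3 moved by 0.04 (exact two-sided permutation p = 0.6; 0.686 adjusted over the 8 pairs). The difference between condensin and cohesin was not tested.

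Of the other somatic cohesin subunits RAD21 fell. RAD21, the kleisin that closes the ring, read 6.73, 6.71 and 6.79 in shGFP a, b and c and 6.24, 6.38 and 6.17 in shGLDC99 a, b and c (-0.48 ± 0.0754 SE, adjusted p = 0.0145 by limma). STAG1 and STAG2, the alternative SA subunits of somatic cohesin, were lower in all knockdown arrays without passing. STAG1 read 6.91, 6.83 and 6.91 against 6.56, 6.66 and 6.77 (-0.22, adjusted p = 0.142). STAG2 read 7.93, 7.85 and 7.90 against 7.68, 7.77 and 7.77 (-0.15, adjusted p = 0.201). Leaving out any 1 array except shGLDC99 b lost the call of RAD21, with adjusted p from 0.0504 to 0.0587.

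STAG3, the SA subunit of meiotic cohesin, fell: 8.31, 8.31 and 8.23 in shGFP a, b and c and 7.87, 7.82 and 7.71 in shGLDC99 a, b and c (-0.48 ± 0.0695 SE, adjusted p = 0.0113 by limma). Several partial copies of STAG3 exist in the genome, and how far its probes read them is not given in the sources used here. Of the 5 probe sets named for such copies (STAG3L1, STAG3L2, STAG3L3, STAG3L4 and the read-through STAG3L5P-PVRIG2P-PILRB) 0 fell and 0 rose by limma. Their differences ran from -0.17 to 0.10. An unadjusted limma p under 0.05 was found for 0 of the 5, against 3599 of all 14779 genes. The read-through read 6.41, 6.18 and 6.27 against 6.36, 6.12 and 6.21. SMC1B, the meiotic ATPase, read 2.28, 2.66 and 2.13 against 2.53, 2.00 and 1.68, far under the median gene level of 5.09 and not shown to exceed background.

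The SMC5/6 ring had the largest fall of the set in 1 of its ATPases and not in the other. SMC6 read 8.68, 8.63 and 8.75 in shGFP a, b and c and 8.13, 8.05 and 8.14 in shGLDC99 a, b and c, or 66.8% of control (-0.58 ± 0.0662 SE, adjusted p = 0.00681 by limma). SMC5 read 8.03, 8.07 and 8.02 against 7.89, 7.81 and 7.92 (-0.17 ± 0.0632 SE, adjusted p = 0.163). The gap between them changed by -0.41, from between 0.56 and 0.73 in control arrays to between 0.22 and 0.24 in knockdown arrays. By exact two-sided permutation p was 0.1, the smallest possible here, and 0.2 adjusted over the 8 pairs. These were chosen after values were seen. SMC5-DT differed by -0.24 with overlapping groups (adjusted p = 0.189). SMC6 was past the threshold under all 15 other settings and array omissions. Over the whole cohesin and SMC5/6 group of 15, 3 fell and 0 rose, with a median of -0.17, where 4.8% of all genes fell. Without any 1 array 2 or 3 fell. With limma's prior variance following intensity 5 fell, where 1350 of all 14779 genes did.

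**Figure D3:**
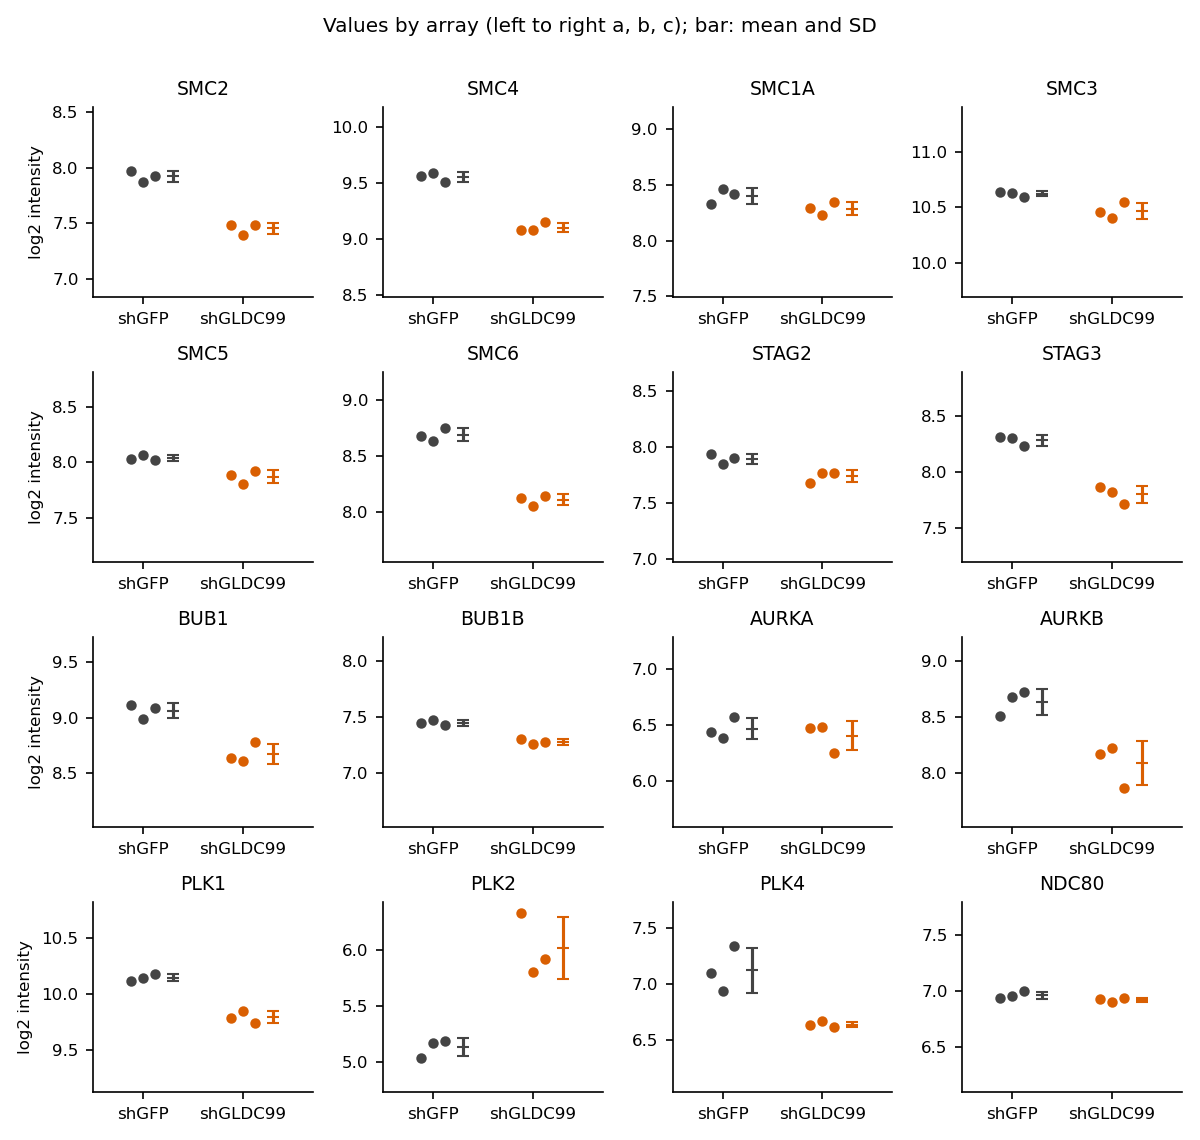
Log2 intensity (vertical axis, each panel spanning 1.7 units) of 16 genes in the 3 shGFP and 3 shGLDC99 arrays, with mean and SD beside the points. SMC2 (-0.46) and SMC4 (-0.45) are lower together, SMC6 is lower (-0.58) beside SMC5 (-0.17), AURKB is lower (-0.55) beside AURKA (-0.06), and PLK2 is higher where PLK1 and PLK4 are lower.

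The genes that load, release and cut cohesin showed no common shift. Of 12 measured, 2 fell and 1 rose, with a median of -0.07, where 4.8% of all genes fell and 3.72% rose. ESPL1, which encodes separase, fell by 0.56 ± 0.0878 (SE), from 6.59, 6.62 and 6.77 in shGFP a, b and c to 6.02, 6.05 and 6.24 in shGLDC99 a, b and c (adjusted p = 0.0149 by limma). CTCF, the insulator protein at which cohesin stops, fell by 0.42. REC8, the meiotic kleisin, rose in the fit to all 6 arrays, from 7.13, 7.07 and 7.09 to 7.50, 7.43 and 7.44 (0.36 ± 0.0605 SE, adjusted p = 0.0184), and so went against RAD21. The loader NIPBL differed by -0.01 (95% interval -0.16 to 0.13) and the release factor WAPL by -0.08. With shGFP a or shGLDC99 c left out 2 and 3 of the list fell, and with any other array left out 0; REC8 did not pass in any of these 6 fits.

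On the chromosome surface and spindle, 3 of 5 genes fell and 0 rose, with a median of -0.39, where 4.8% of all genes fell. In all 5 the knockdown arrays lay below all control arrays, against 16.3% of all genes. TOP2A, which untangles sister chromatids, read 10.17, 10.09 and 10.14 in shGFP a, b and c and 9.66, 9.67 and 9.70 in shGLDC99 a, b and c, or 72.7% of control (adjusted p = 0.00931 by limma). MKI67, which coats mitotic chromosomes and is the Ki-67 marker, read 9.63, 9.65 and 9.67 against 9.26, 9.22 and 9.27, or 75.9% (adjusted p = 0.0116). NUSAP1, a microtubule-bundling spindle protein, read 9.19, 9.23 and 9.19 against 8.81, 8.89 and 8.74, or 76.3% (adjusted p = 0.0198).

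PRC1, the bundler of the central spindle, read 7.83, 7.89 and 7.87 in shGFP a, b and c and 7.52, 7.66 and 7.61 in shGLDC99 a, b and c (-0.27, adjusted p = 0.0550 by limma). ECT2, the exchange factor that opens the cleavage furrow, read 9.14, 9.15 and 9.20 against 8.82, 8.90 and 8.98 (-0.26, adjusted p = 0.0646). Both passed with limma's prior variance following intensity, and without the dimmest 40% of genes. In those settings 1350 of 14779 and 1252 of 8867 of all genes fell. Without shGFP a, b or c 2, 2 and 1 of the 5 fell, and without shGLDC99 a, b or c 2, 3 and 2. The 2 remaining CENP-named genes did not pass: CENPV, a microtubule-stabilising protein, read 8.72, 8.65 and 8.68 against 8.61, 8.57 and 8.38 (-0.16), and the pseudogene CENPBD2P 5.32, 5.60 and 5.57 against 5.43, 5.43 and 5.30 (-0.11).

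The wider mitotic programme can be read from lists written from general knowledge, but with earlier results of these data known. Of 23 measured genes of mitotic entry and the spindle, 12 fell and 0 rose, where 4.8% of all genes fell and 3.72% rose. All 23 differences were below 0, with a median of -0.33, where 7630 of all 14779 genes were below 0. The smallest adjusted p belonged to the cytokinesis motor KIF20A (-0.53), the centrosome kinase NEK2 (-0.45) and the microtubule-tip protein GTSE1 (-0.56). Without shGFP a, b or c 6, 7 and 4 of them fell, and without shGLDC99 a, b or c 6, 6 and 7. The anaphase-promoting complex had no fall: of 17 measured genes 0 fell and 0 rose by limma. An unadjusted limma p under 0.05 was found for 3 of the 17, against 3599 of all 14779 genes. Differences were below 0 for 8 of the 17, and the median was 0.02. The smallest adjusted p there belonged to CDC27 (-0.22, adjusted p = 0.0649), the inhibitor FBXO5 (-0.28, adjusted p = 0.0887) and CDC26 (-0.17, adjusted p = 0.127). Without moderation 2 of these genes fell, without the dimmest 40% of genes 3, and with limma's prior variance following intensity 2 fell and 1 rose. Of all genes 602, 1252 of 8867 and 1350 fell under these settings, and 1088 rose under the last.

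The list of transcriptional regulators of mitotic genes held activators and repressors, and both kinds were among the falls. Of 18 measured, 5 fell and 0 rose, with 17 below 0 and a median of -0.23, where 4.8% of all genes fell. LIN52, a core subunit of MuvB, read 6.53, 6.56 and 6.71 in shGFP a, b and c and 6.06, 5.90 and 5.95 in shGLDC99 a, b and c (-0.63 ± 0.0806 SE, adjusted p = 0.00885 by limma). RBL1 (-0.59), the p107 pocket protein and a repressor, and MYBL2 (-0.46), which encodes B-MYB, fell too. The repressor E2F7 (-0.47) and the activator E2F2 (-0.41), chosen after their values were seen, also fell. FOXM1 read 7.77, 7.78 and 7.78 against 7.53, 7.57 and 7.49, a difference of -0.25 just outside the threshold (adjusted p = 0.0517). LIN54, the subunit that contacts the CHR element, differed by -0.09 (95% interval -0.29 to 0.10). Without shGFP a, b or c 2, 2 and 2 of the list fell, and without shGLDC99 a, b or c 3, 2 and 2.

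**Figure D4:**
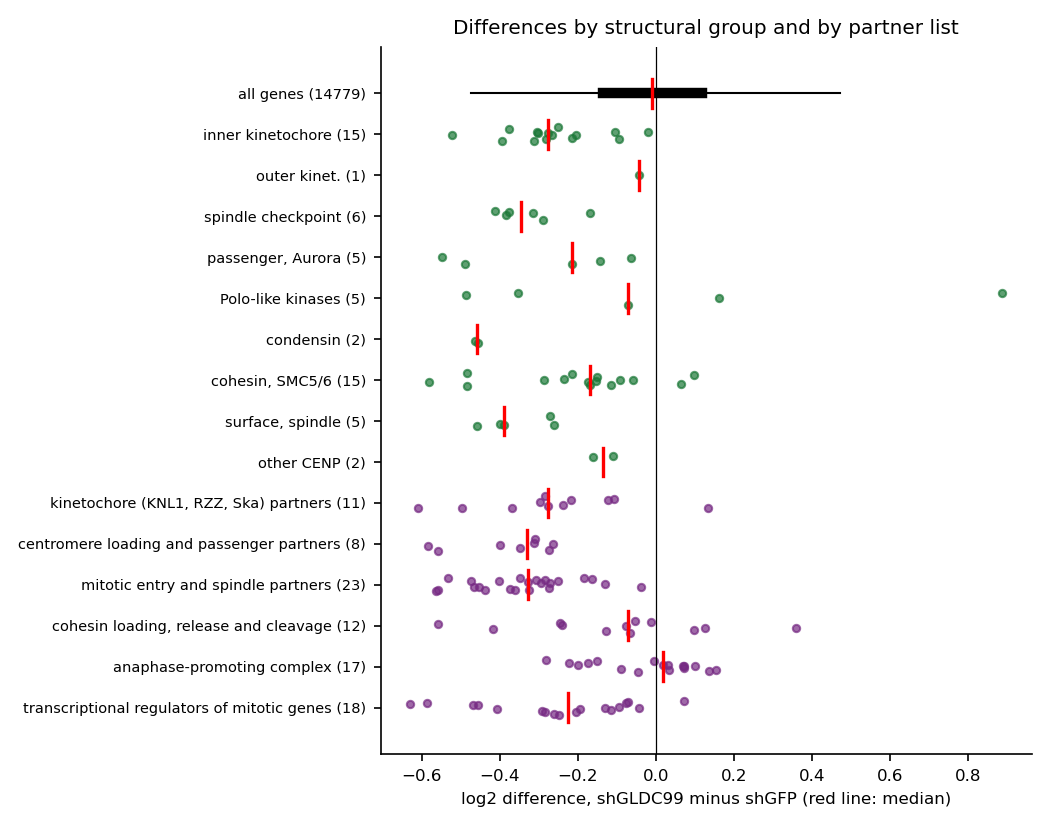
Log2 difference (shGLDC99 minus shGFP, horizontal axis) of the genes of each structural group (green) and partner list (purple), 1 point per gene, with the median as a red line and the number of genes in brackets; for all genes the thick and thin bars span the middle 50% and 95%. The medians of condensin (-0.46), chromosome surface and spindle (-0.39) and checkpoint (-0.34) lie left of the middle 50% of all genes, and that of the anaphase-promoting complex (0.02) lies near 0.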

How the data were processed

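Affymetrix Human Gene 2.0 ST arrays were run on 6 RNA samples. The authors deposited log2 intensities, 1 per probe set and array. No source states the base; it was inferred, because values reach 13.28 and a natural log of 16-bit intensity cannot exceed 11.09. Partek was used, per the submitters' processing notes, with its version, background correction and normalization not given in the sources used here. Medians of the arrays spanned 4.28 to 4.33. Of 31135 deposited probe sets 15098 had 1 gene symbol and 16037 none; the probe set with the highest mean stood for each gene, and all 56 genes described had a single one. Differences were fitted over all 14779 genes with limma 3.58.1 in R 4.3.3 (Benjamini-Hochberg adjustment), checked on simulated data; 8 gene pairs, chosen after values were seen, had exact permutation tests. Sequences are from RefSeq. The 56 genes and the lists were chosen with earlier results of these data known. The rule for values by array took, in each structural group, the 4 smallest adjusted p, the largest, and any gene that rose; other genes of the set were added after values were seen. Of each partner list the 3 smallest adjusted p were named, with any called against the list's median. HJURP, CDCA8, NIPBL, WAPL, FOXM1 and LIN54 were added for their roles after values were seen. The number of arrays limits the precision.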

Additional observations from a re-analysis of the deposited data

How the results depend on the processing

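GLDC kept its call under all 15 alternatives. With quantile normalization again, median centring, array weights or averaged probe sets, all 22 calls among the 56 genes were kept and 0 were added. Without the dimmest 40% of genes 28 of 53 fell, with limma's prior variance following intensity 30, without moderation 16 and over all probe sets 15; PLK2 rose in each but the unmoderated model, which gave 0 rises. Deviations from the group means showed little correlation by letter (-0.0119, 0.0182 and -0.00106 for a, b and c). Of 3 knockdown arrays 1 correlated best with the control array of its own letter. The labels do not say what the letters pair, and these correlations cannot show whether samples of 1 letter were handled together. With the replicate block 1 of the 56 genes fell, SMC6, and 0 rose, and over all genes 126 fell and 103 rose. Without any 1 array, 5 to 9 of the 56 fell and 0 to 1 rose, and over all genes 238 to 327 fell and 207 to 240 rose. Fewer samples entered these fits, and the cause of the lower counts was not tested. Over all genes, 1252 fell and 969 rose without the dimmest 40%, and 1350 and 1088 when the prior variance followed intensity. The uncalled differences that turned sign when 1 array was left out ranged from -0.090 to 0.066 for CENPT, -0.049 to 0.28 for PLK5, -0.10 to 0.012 for AURKA, -0.17 to 0.039 for STAG3L1, -0.12 to 0.0038 for STAG3L5P-PVRIG2P-PILRB and -0.016 to 0.17 for STAG3L3. The cause of these shifts was not tested. Alternatives for the partner lists were added after the data were seen. AURKC, PLK5 and SMC1B lay below the median gene level, so their differences are uncertain in size.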
